A study of Caenorhabditis elegans with 3 samples.

Results

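The regions described here are the weaker peaks of EGL-27 signal that were found in all 3 replicates of a chromatin immunoprecipitation sequencing (ChIP-seq) experiment in larvae of the nematode Caenorhabditis elegans. They were chosen by measured values. The nuclear peaks of the list called on the pooled replicates were ranked by the authors' signal value, and a peak beyond rank 1500 was a member when its summit, the position of highest signal, lay inside a peak of each replicate's own list. Of 23217 nuclear pooled peaks, 21717 ranked beyond 1500, and 975 of those were members. That is 4.49% (95% exact binomial interval 4.22 to 4.77%, for counting error only). The count is set by the rule and ran from 27 to 4926 under other choices of lists and thresholds. The members were set beside the first 1500 peaks and beside the 20742 weaker peaks found in fewer replicates. The pooled and replicate lists were deposited as peaks and background, so being listed does not by itself make a region a bound site.

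The worms formed a single group: strain OP177, with the unc-119(ed3) III allele and the transgene wgIs177, collected as mixed-sex whole L1 larvae, the larval stage after hatching. The transgene carries egl-27 with green fluorescent protein (GFP), and the label of replicate 3 gives the tag as a C-terminal GFP-FLAG fusion. Replicates 1 and 2 came from the Caenorhabditis Genetics Center and are labelled with fragments of 150 to 350 bp, whereas the label of replicate 3 names the submitting laboratory as source and a microtip for sonication. All cells of the larva were sampled together, so a site bound in few cells and a site bound weakly in many cells cannot be told apart. No untagged sample was used here, and the deposited library notes give a single control alignment for all lists.

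EGL-27 is related to the metastasis-associated (MTA) subunits of the nucleosome remodelling and deacetylase (NuRD) complex, which removes acetyl groups from histones and repositions nucleosomes. It has a GATA-type zinc finger and is known in C. elegans for roles in the polarity and migration of neural and epidermal cells, in Hox gene patterning and in the fate of the epidermal seam cells. Finding a peak of low rank again in separate replicates is a usual check on such a peak.

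The sequences below show what lay at member summits that carried the GA repeat (GAGAGA or its reverse complement TCTCTC), the sequence CTGCGTCTC, or a GATA site (AGATAA, or AGATAG, or TGATAA, or TGATAG), each searched on both strands. Each is the 81 bases around a pooled summit, from the RefSeq sequence of WBcel235 (ce11), plus strand, 5′ to 3′, with the named motif in capitals. For each motif they are members with the best rank in their worst replicate, off annotated exons, and the windows at lag-1 and C15H9.9 were added after their values were seen because they lie away from any stronger peak.
GA repeat, intergenic, chrIII:4100159-4100239: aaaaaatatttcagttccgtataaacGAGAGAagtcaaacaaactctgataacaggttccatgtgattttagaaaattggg
GA repeat, 95 bp upstream of clec-126, chrII:3519359-3519439: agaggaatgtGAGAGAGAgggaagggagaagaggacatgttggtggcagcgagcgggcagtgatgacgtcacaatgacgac
GA repeat, intron of lag-1, chrIV:6099862-6099942: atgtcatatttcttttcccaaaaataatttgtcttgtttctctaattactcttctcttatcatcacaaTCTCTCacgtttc
CTGCGTCTC, intergenic near epg-9, chrIV:2599809-2599889: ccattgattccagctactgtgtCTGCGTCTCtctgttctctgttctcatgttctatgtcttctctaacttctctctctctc
CTGCGTCTC, intron of F52D2.7, chrX:1965036-1965116: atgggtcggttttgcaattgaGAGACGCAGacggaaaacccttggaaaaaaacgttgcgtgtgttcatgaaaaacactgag
GATA site, 554 bp upstream of miz-1, chrIV:10822065-10822145: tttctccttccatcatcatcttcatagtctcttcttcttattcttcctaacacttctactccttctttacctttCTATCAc
GATA site, 253 bp upstream of C15H9.9, chrX:6128488-6128568: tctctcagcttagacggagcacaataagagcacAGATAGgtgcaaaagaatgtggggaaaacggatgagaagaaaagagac
The window at epg-9 also holds GA repeats, at its right end and overlapping the end of the CTGCGTCTC, and the window at F52D2.7 holds a GA repeat that overlaps its CTGCGTCTC. The unnamed intergenic window and the lag-1 window also hold a GATA site, and the C15H9.9 window begins with a GA repeat. The first, second and miz-1 windows lie 199 to 206 bp from the summit of a peak among the first 1500.

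Membership fell with pooled rank, which the rule itself used, so these shares are a description. Of the next 1500 peaks, down to rank 3000, 381 were in all 3 replicates, or 25.4%. The share was 13.9% from there to rank 4500, 7.33% from there to rank 6000 and 0.633% beyond rank 18000. Among the first 1500 peaks it was 68.6%, or 1029 peaks. The members therefore crowded near the threshold, with a median rank of 3583, but the lowest ranked 22969 of 23217. Their pooled signal ran from 7.89 to 22.6 with a median of 16.2, against a median of 10.3 for the weaker peaks found in fewer replicates. The peaks of each replicate list covered 6.33%, 11.7% and 11.3% of the nuclear genome, and the product of these shares would place 18.2 of the weaker summits in all 3 lists. That product assumes positions independent between lists and independent of the pooled list, and is given only as a scale. The pooled list was called on the same replicates, and 22.4%, 56.0% and 51.96% of weaker summits lay inside the lists of replicates 1, 2 and 3. The product is therefore no baseline for the 975 members, and agreement between replicates beyond a baseline was not tested.

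**Figure D1:**
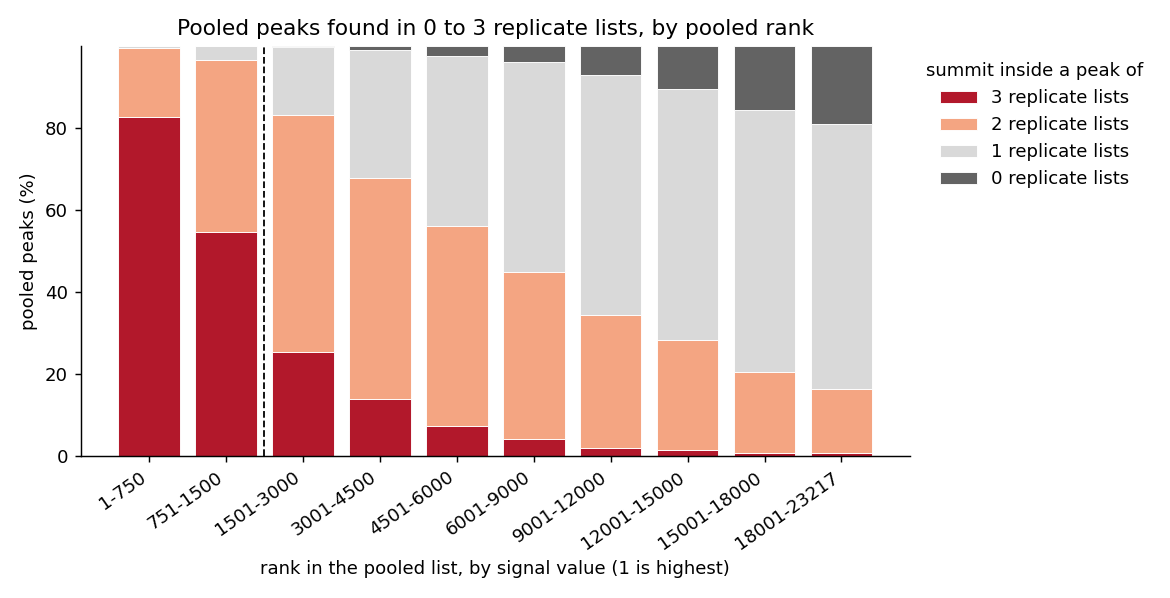
Share of pooled peaks (y axis, %) whose summit lay inside a peak of 3, 2, 1 or 0 replicate lists, by pooled rank (x axis); the dashed line marks rank 1500. The share in all 3 lists falls from 82.7% at ranks 1 to 750 to 25.4% at ranks up to 3000 and below 2% beyond rank 9000.

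Replicate 1 set the size of the group more than the others did. Its list held 15276 nuclear peaks, against 29972 in replicate 2 and 30000 in replicate 3, and 22.4% of all weaker summits lay inside it, against 56.0% and 51.96%. Of the 6814 weaker peaks found in 2 replicates, 58.0% were missing from replicate 1, 21.7% from replicate 2 and 20.3% from replicate 3. When the lists of replicates 2 and 3 were shortened to the length of replicate 1's, 416 members remained, and without replicate 1, 4926 weaker peaks were in both of the other lists. Only 27 members were left when every replicate peak had to carry a −log10 q-value of 2 or more. In the pooled list no member reached 2: their −log10 q-values had a median of 0.723 and a maximum of 1.97. The median was 0.120 in weaker peaks found in fewer replicates and 2.36 in the first 1500. None of the 975 summits lay inside the authors' IDR-thresholded list (irreproducible discovery rate), whose 704 nuclear peaks all ranked at or above 704 in the pooled list.

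The members just inside the threshold had nearly the same pooled signal as the peaks just outside it. The last 5 of the first 1500, at scpl-3, at his-24, a linker histone gene, at nhr-112, at eas-1 and at rheb-1, a GTPase gene of the TOR pathway, had signals from 22.60 to 22.62, and none of these 5 lay in all 3 replicates. The 5 highest members had signals from 22.50 to 22.59. The member at lmbr-1, the highest of all (chrIII:8370879-8371268) had replicate signals of 2.57, 10.4 and 4.65 in replicates 1, 2 and 3, and ranked 70.1% of the way down the list in replicate 1, its worst. The member in an intron of Y54G2A.26 (rank 1502) carried a GA repeat, CTGCGTCTC and a GATA site together, with replicate signals of 5.08, 5.96 and 14.4. The members near Y38E10A.22 and pfkb-1.2 lay in promoters, and the member of rank 1508 lay in intergenic sequence. The strongest weaker peaks that missed membership were at ears-2, cyn-3, an intergenic site, sur-5 and K10B2.4, with pooled signals of 22.5 to 22.6. Each was absent from replicate 1, and the peak at cyn-3 was absent from replicate 2 as well.

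Presence in all 3 lists did not mean a similar height in them. The replicate peaks that held the members had median signals of 3.55 in replicate 1, 6.49 in replicate 2 and 6.17 in replicate 3, on scales that cannot be compared between lists. Within its own list the median member ranked at 37.2% of the list in replicate 1, 38.1% in replicate 2 and 29.4% in replicate 3, where 0% is the highest signal. Across the 975 members the replicate signals were weakly related, with Spearman's rho of 0.149 between replicates 1 and 2, 0.164 between 1 and 3, and 0.030 between 2 and 3. The rule chose members by pooled rank and by presence in each list, which limits the range of these signals. The rho values therefore describe the members only and say nothing about how the replicates relate at other peaks. In 724 members no replicate peak was among the first 1500 of its own list, and in 16 members all 3 were. The worst of the 3 ranks had a median of 68.2% of the list. The pooled and the replicate summits also differed in position: the median distance was 79 bp in replicate 1, 55 bp in replicate 2 and 38 bp in replicate 3, and 279 members (28.6%) had all 3 replicate summits within 100 bp.

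**Figure D2:**
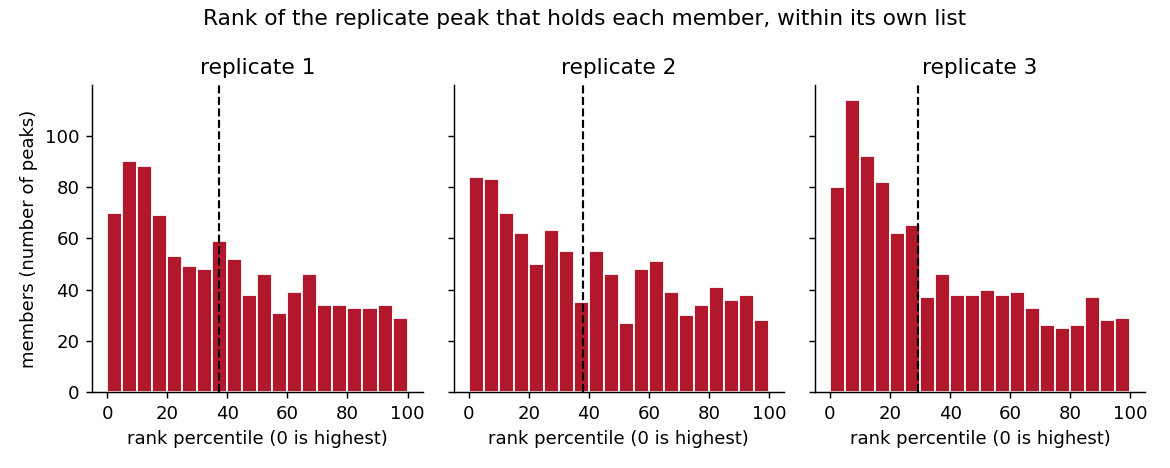
Number of members (y axis) by the rank of the replicate peak that holds them, as a percentage of the length of that replicate's list (x axis, 0 is the highest signal), 1 panel per replicate; dashed lines mark medians of 37.2%, 38.1% and 29.4%. Members come from the whole length of every list, with more from its upper part.

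Some members lay beside a stronger peak. The summits of 122 members (12.5%) lay within 1000 bp of a summit among the first 1500, against 3.42% of the weaker peaks in fewer replicates, and those of 95 members lay within 500 bp. In 93 members the replicate peak that held the summit also held a summit of the first 1500 in at least 1 replicate, so its replicate value cannot be assigned to either summit alone. Of all members, 56 shared a replicate peak with a second member. Of the 12 members with the best rank in their worst replicate, 11 lay 199 to 206 bp from a first-1500 summit. They were at spc-1, the alpha-spectrin gene, at Y97E10C.1, at rbd-1, which encodes an RNA-binding protein of ribosome biogenesis, at Y97E10AR.1, in mom-1, the Porcupine homologue needed for Wnt secretion, at ZK1193.2 and miz-1, in intergenic sequence on III, at the neuropeptide-like gene nlp-76, in larp-1, a La-related RNA-binding protein gene, and in kin-20, a casein kinase 1 gene of the heterochronic pathway.

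The member 1000 bp upstream of spc-1 (chrX:3127884-3128273) had the best rank in its worst replicate, with signals of 15.8, 24.97 and 28.3 in replicates 1, 2 and 3 and ranks of 84, 102 and 215. Its pooled signal was 19.2, and all 3 replicate summits lay 182 to 200 bp away from its own. The member in the intron of mom-1 (chrX:6296542-6296931) had signals of 26.2, 29.0 and 14.5 and lay 201 bp from a first-1500 summit.

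The 853 members with no first-1500 summit within 1000 bp were described apart, a choice made after these values were seen. The best of them by the same ranking lay 79 bp upstream of cpf-2, which encodes a subunit of the mRNA 3′-end cleavage machinery (chrIII:13268767-13269156). Its signals were 7.57, 12.3 and 15.1 in replicates 1, 2 and 3, and its ranks of 712, 1220 and 884 placed it within the top 4.66% of each list. Next came the promoter of F48A11.4, with signals of 7.15, 9.85 and 9.46, and an intron of csnk-1, a casein kinase 1 gene, with 6.24, 9.56 and 12.3. The fourth lay in an intron of lag-1, the DNA-binding effector of Notch signalling (chrIV:6099707-6100096), with signals of 8.07, 10.04 and 8.84, and its summit is 132790 bp from the nearest first-1500 summit. The promoters of C27A7.5 and K06A4.7, the intergenic site near epg-9, an autophagy gene, and an intron of B0563.5 completed the best 8. All 8 ranked in the upper 12.9% of every replicate list. Near the other end, the member 193 bp upstream of rop-1, the gene of the Ro RNA-binding protein, ranked 1085 in replicate 1 and 29978 in replicate 3.

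Members lay in promoters more often, and in coding exons less often, than weaker peaks found in fewer replicates. Promoters were counted as the 1000 bp before and 500 bp after the 5′ end of any protein-coding transcript, and they covered 31.8% of the nuclear genome. They held 460 member summits, or 47.2% (44.01 to 50.4%), against 37.2% of the weaker peaks in fewer replicates. The odds ratio was 1.51 (Fisher's exact test, two-sided, Benjamini-Hochberg adjusted p = 5.8e-09 over 26 tests). Among the first 1500 peaks the promoter share was 51.9%, and the difference from the members missed the threshold (odds ratio 0.827, adjusted p = 0.0615, Fisher's exact test). That difference passed the threshold when any replicate was left out (odds ratios 0.633 to 0.720) and with a shorter or longer promoter (0.745 and 0.791). Coding exons held 57 member summits, or 5.85%, against 14.3% in fewer replicates (odds ratio 0.373, adjusted p = 7.4e-15, Fisher's exact test) and 0.8% among the first 1500 (odds ratio 7.70, adjusted p = 1.6e-12, Fisher's exact test). Coding exons not already counted as promoter make up 16.5% of the genome. The size of the coding exon difference moved with the lists used. The odds ratio was 0.871 without replicate 1, over the 4926 weaker peaks in both other lists (adjusted p = 0.011, Fisher's exact test), 0.583 without replicate 2 and 0.212 with replicate lists of equal length.

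Both shares moved step by step with the number of replicates. Promoters held 34.8% of weaker summits found in 0 replicates, 36.2% of those in 1, 39.8% of those in 2 and 47.2% of the members. Coding exons held 15.7%, 15.1%, 12.4% and 5.85% in the same order. Introns held 18.1% of member summits against 22.8% in fewer replicates (odds ratio 0.745, adjusted p = 0.0023, Fisher's exact test). Intergenic sequence held 22.9% against 20.7%, a difference that missed the threshold (adjusted p = 0.23, Fisher's exact test). Peaks are not replicates of the condition, so these tests measure counts of positions and not the spread between larvae. The summits that each replicate gave for the same regions were also placed. Since the members are the same 975 regions in every list, their values show the effect of summit position and are not independent replicates. The other weaker peaks entered only where a replicate list held them, as 3885, 11193 and 10309 peaks in replicates 1, 2 and 3. Their SD therefore mixes different sets of peaks with summit position. The promoter share at these summits was 47.4% ± 0.41 (SD, n = 3) in members and 38.7% ± 1.3 (SD, n = 3) in the other weaker peaks. Their coding exon share was 6.09% ± 0.47 in members (SD, n = 3) and 12.7% ± 2.8 (SD, n = 3) in the other weaker peaks.

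**Figure D3:**
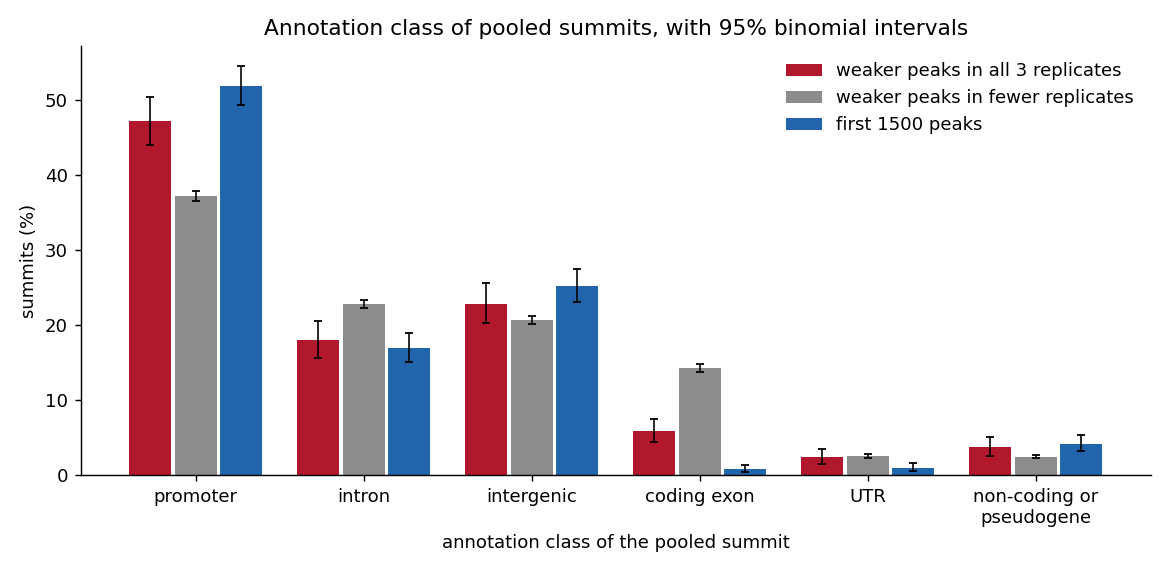
Share of pooled summits (y axis, %) in each annotation class (x axis) for members, weaker peaks in fewer replicates and the first 1500 peaks; bars carry 95% exact binomial intervals, which cover counting error only. Members are at 47.2% in promoters and 5.85% in coding exons, between the other groups in both classes.

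Members ranked higher than the other weaker peaks, so the comparison was repeated within 8 bins of pooled rank. The promoter odds ratio was then 1.28 (Cochran-Mantel-Haenszel chi-square test, adjusted p = 0.0026) and the coding exon odds ratio 0.567 (adjusted p = 0.00081, Cochran-Mantel-Haenszel chi-square test), while the intron difference missed the threshold (odds ratio 0.833, adjusted p = 0.19, Cochran-Mantel-Haenszel chi-square test). At ranks up to 3000, 49.3% of members and 43.7% of the others were in promoters, and 2.62% and 6.17% in coding exons. The promoter difference also missed the threshold when a member had to lie within 100 bp of a summit in each replicate, which left 319 members (odds ratio 1.33, adjusted p = 0.071, Fisher's exact test).

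Within promoters, 354 of 460 member summits (77.0%) lay upstream of the nearest 5′ end, at a median of 250.5 bp, compared with 62.7% in fewer replicates and 88.6% among the first 1500. The promoter window reaches 1000 bp upstream but only 500 bp downstream, so it holds more upstream positions by definition. Those shares were not tested against the window or against each other. The median distance of any member summit to a 5′ end was 908 bp, and 27.9% lay more than 2000 bp from one. Short non-coding genes were close to some members. A tRNA gene lay within 250 bp of 26 member summits, or 2.67% (1.75 to 3.88%), against 1.03% of those in fewer replicates and 4.2% of the first 1500, while such spans make up 0.325% of the genome. A snoRNA gene, which guides chemical modification of other RNAs, lay within 250 bp of 15 members, or 1.54% (0.864 to 2.53%), against 0.492% in fewer replicates. An snRNA gene lay near 5 members, or 0.513%, against 0.111% in fewer replicates, 1.33% of the first 1500 and 0.0777% of the genome. A microRNA gene lay near 4 members, or 0.410%, against 0.183%, 0.4% and 0.140%.

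The members were spread over all 6 nuclear chromosomes. The X chromosome held 200 of them, or 20.5% (18.02 to 23.2%), against 18.6% of the weaker peaks in fewer replicates (odds ratio 1.13, adjusted p = 0.31, Fisher's exact test) and 22.5% of the first 1500 (odds ratio 0.891, adjusted p = 0.44, Fisher's exact test). Within rank bins the X odds ratio was 0.973. No chromosome's share differed past the threshold in either comparison, though without replicate 2 the X odds ratio against fewer replicates was 1.205 (adjusted p = 0.0021, Fisher's exact test) and without replicate 1 it was 1.103 (adjusted p = 0.033, Fisher's exact test). The central 33.3% of the autosomes, which is gene-dense in this species, held 39.1% of autosomal members against 32.95% in fewer replicates (odds ratio 1.31, adjusted p = 0.0023, Fisher's exact test). That difference missed the threshold within rank bins (odds ratio 1.097, adjusted p = 0.64, Cochran-Mantel-Haenszel chi-square test).

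The GA repeat marked member summits. GA repeats are bound by dedicated factors in several animals and are common at promoters. At least 1 GAGAGA or TCTCTC lay within 50 bp of 209 of 975 member summits, or 21.4% (18.9 to 24.2%), against 6.46% of the flanks, which are windows of equal length with their centre 300 bp further right (adjusted p = 5.1e-21, exact McNemar test, two-sided, over 15 motifs). Of all 992797 windows of that length in the genome, 5.18% hold it. The share was 8.74% in weaker peaks found in fewer replicates (odds ratio 2.85, adjusted p = 3.1e-30 over 30 tests, Fisher's exact test) and 35.9% among the first 1500 (odds ratio 0.487, adjusted p = 1.6e-13, Fisher's exact test). By the number of replicates it was 6.55% in 0, 7.93% in 1, 10.8% in 2 and 21.4% in all 3. Longer runs of alternating G and A were rarer: 40 members (4.10%) had a run of 10 bases or more, against 0.868% in fewer replicates and 5.67% of the first 1500.

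The difference held within rank bins at a smaller size, with an odds ratio of 1.79 (adjusted p = 9.4e-10, Cochran-Mantel-Haenszel chi-square test). At ranks up to 3000 the GA repeat was in 28.6% of members and 17.9% of the other peaks, and between ranks 9000 and 12000 in 8.62% and 7.78%. It was also present by annotation class, in 21.5% of promoter members against 9.67% of promoter peaks in fewer replicates (odds ratio 2.56), in 23.3% against 7.98% in introns (odds ratio 3.501) and in 24.7% against 10.3% in intergenic sequence (odds ratio 2.85), each with an adjusted p of at most 1.9e-08 by Fisher's exact test. The share in members ran from 17.6% on II to 26.8% on V. At each replicate's own summits for the members it was 18.4%, 17.3% and 22.6% in replicates 1, 2 and 3, a mean of 19.4% ± 2.8 (SD, n = 3), against 11.8%, 7.19% and 10.8% for the other weaker peaks. The member values again come from the same 975 regions, and those of the other weaker peaks from a different set of peaks in each list. Of the 853 members away from stronger summits, 21.6% had the repeat, the share being as large without the members beside stronger peaks. Leaving out replicate 1 lowered the odds ratio against fewer replicates to 1.47 and the ratio of summit to flank from 3.32 to 1.96 (it was 6.11 with windows of 25 bp on each side), and leaving out replicate 3 gave an odds ratio of 1.77. With the flank taken 300 bp to the left, the ratio of summit to flank was 2.49 (adjusted p = 1.1e-14, exact McNemar test). Against the first 1500 the odds ratio was 0.244 without replicate 1 and 0.29995 without replicate 3.

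**Figure D4:**
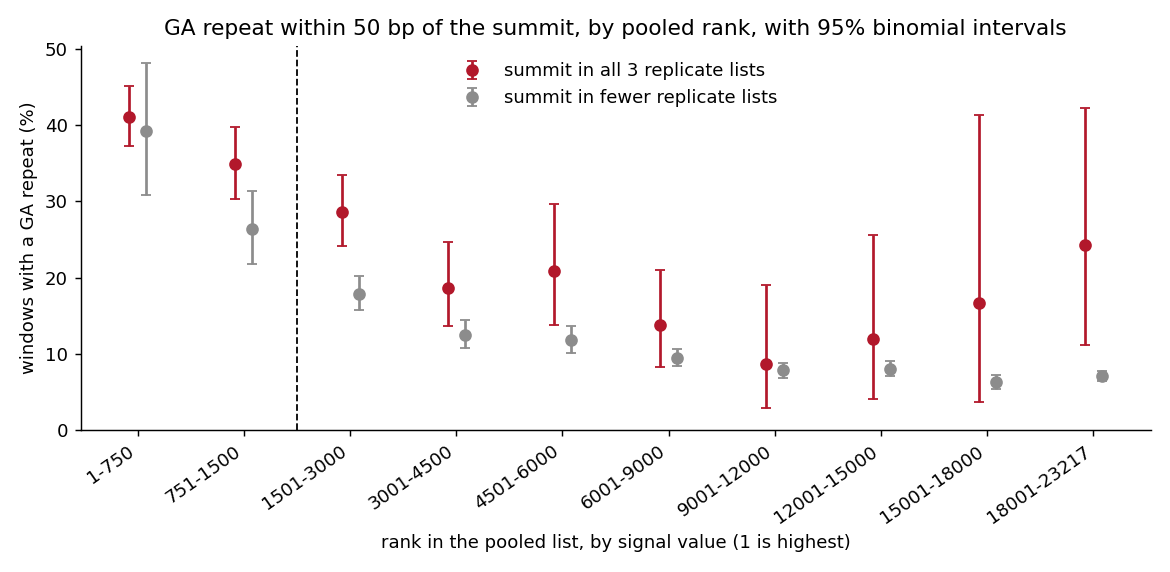
Share of summit windows with a GA repeat (y axis, %) by pooled rank (x axis), for peaks in all 3 replicate lists and in fewer; error bars are 95% exact binomial intervals and the dashed line marks rank 1500. At ranks up to 3000 the values are 28.6% and 17.9%; beyond rank 9000 the bins in all 3 lists hold at most 58 peaks and their intervals are wide.

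**Figure D5:**
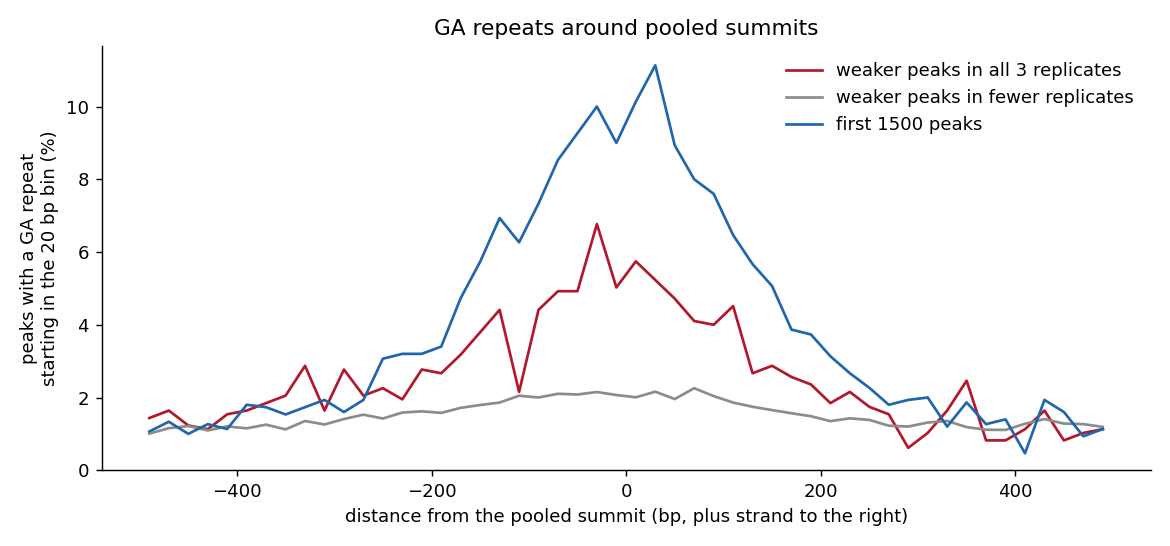
Share of peaks with a GA repeat starting in each 20 bp bin (y axis, %) by distance from the pooled summit (x axis, bp). The members reach 6.77% in the bin centred 30 bp left of the summit, the first 1500 reach 11.1% and the weaker peaks in fewer replicates stay at or below 2.26% within 100 bp.

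The sequence CTGCGTCTC was rarer. It lay within 50 bp of 32 member summits, or 3.28% (2.26 to 4.602%), against 0.615% of their flanks (adjusted p = 6.5e-05, exact McNemar test) and 0.390% of genome windows. The share was 1.19% in fewer replicates (odds ratio 2.82, adjusted p = 6.0e-06, Fisher's exact test) and 10.9% among the first 1500 (odds ratio 0.276, adjusted p = 5.1e-12, Fisher's exact test). Within rank bins the difference from weaker peaks in fewer replicates missed the threshold (odds ratio 1.41, adjusted p = 0.34, Cochran-Mantel-Haenszel chi-square test). The ratio of summit to flank fell from 5.33 to 2.29 with the flank taken 300 bp to the left, and to 2.5 without replicate 1, where the odds ratios were 1.502 against fewer replicates and 0.143 against the first 1500. With windows of 25 bp on each side the odds ratio against the first 1500 was 0.459. At the replicates' own summits the share in members was 3.66% ± 0.48 (SD, n = 3). It was 1.56% ± 0.65 (SD, n = 3) for the other weaker peaks, again a different set of peaks in each list.

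The GATA site, the kind of sequence that GATA-type zinc fingers bind, was not called at member summits. It lay in 216 member windows, or 22.2% (19.6 to 24.9%), against 20.2% of the flanks (adjusted p = 0.48, exact McNemar test), 20.6% in fewer replicates (odds ratio 1.09, adjusted p = 0.37, Fisher's exact test) and 20.2% of the first 1500. Genome windows hold it at 19.8%. Without replicate 2 both differences passed the threshold, with a ratio to the flank of 1.16 (adjusted p = 0.017, exact McNemar test) and an odds ratio of 1.13 (adjusted p = 0.034, Fisher's exact test). Among members in introns it was in 29.0%, against 19.1% of intron peaks in fewer replicates (odds ratio 1.73, adjusted p = 0.0055, Fisher's exact test), whereas promoter members had 19.8% against 21.4% (odds ratio 0.908, adjusted p = 0.45, Fisher's exact test). Whether the intron and promoter values differ from each other was not tested.

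Some of the other motifs were less frequent at the summits than in their flanks. A run of 8 T or 8 A bases was in 6.87% of member windows against 14.4% of flanks (adjusted p = 2.1e-07, exact McNemar test) and 11.4% in fewer replicates (odds ratio 0.574, adjusted p = 1.9e-05, Fisher's exact test). The intron-end sequence TTTCAG was in 11.4% against 18.1% of flanks (adjusted p = 6.6e-05, exact McNemar test) and 17.3% in fewer replicates (odds ratio 0.613, adjusted p = 3.1e-06, Fisher's exact test). Within rank bins the TTTCAG difference missed the threshold (odds ratio 0.767, adjusted p = 0.078, Cochran-Mantel-Haenszel chi-square test). TATAAA was in 8.21% against 11.7% of flanks (adjusted p = 0.032, exact McNemar test). Its difference from the 9.66% in fewer replicates missed the threshold (odds ratio 0.836, adjusted p = 0.26, Fisher's exact test). The GC-rich Sp1/KLF sequence GGGCGG was in 3.38% against 1.64% (adjusted p = 0.047, exact McNemar test). The E-box CACGTG was in 2.36% of member windows and in 2.36% of their flanks, and CANNTG, the wider pattern that includes CACGTG, in 34.3% and 33.3%. Windows at member summits had a median GC content of 40.6%, their flanks 35.6%, the weaker peaks in fewer replicates 37.6% and the first 1500 peaks 46.5%. The part of GC content in the motif differences was not tested.

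A search over all 2080 merged 6-mers (a 6-base sequence and its reverse complement counted together) was run as well. At an adjusted p under 0.05 in the exact McNemar test, 99 6-mers (4.76%) were more frequent at member summits than in their flanks and 71 (3.41%) were less frequent. GAGAGA led, and 27 of the 99 held GAGA or TCTC, against 47 of all 2080. Of the 71 that were less frequent, 47 held a run of 3 A or 3 T bases, against 208 of all 2080. AGAGAA was in 21.9% of member windows and 10.1% of flanks, and AAAATT in 24.6% and 40.2%. Against weaker peaks in fewer replicates, 106 6-mers (5.1%) were more frequent in members and 64 (3.08%) less frequent at an adjusted p under 0.05 in Fisher's exact test. Overlapping 6-mers share bases and are not separate findings.

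At the level of genes, 537 of 19973 protein-coding genes (2.69%) had a member summit in a promoter window. By comparison 928 genes (4.65%) had a first-1500 summit and 6951 (34.8%) a summit of the weaker peaks in fewer replicates. A single member summit was found for 516 of the 537 genes, and 65 of them (12.1%) also had a first-1500 summit. Adding the members to the first 1500 therefore raised the number of genes from 928 to 1400. The gene lists below were assembled with earlier results of these data known, and their counts are a description beside the 2.69% of all genes.

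Of 15 genes of developmental timing, 5 (33.3%) had a first-1500 summit and 10 (66.7%) a weaker summit found in fewer replicates. The shares of all genes were 4.65% and 34.8%. A member summit was found for 3 of the 15 (20%, 4.33 to 48.1%). They were lin-14, a regulator of early larval fates, lin-42, the homologue of the period genes, and lin-66, which acts on the timing gene lin-28. At lin-42 the summit (pooled signal 21.1) lay 285 bp inside the transcript, with replicate signals of 3.94, 6.77 and 9.64. At lin-14 it lay 95 bp upstream (13.4), with replicate signals of 4.08, 4.08 and 10.3 and ranks of 4108, 28233 and 2228 in replicates 1, 2 and 3. At lin-66 it lay 224 bp upstream (11.7), with replicate signals of 4.27, 4.31 and 32.6, and a first-1500 summit is in the same promoter. Replicate 3 ranked 156 at lin-66, far above the ranks of 3592 and 26086 in the others.

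Of 27 insulin and stress regulators, 9 (33.3%) had a first-1500 summit and 18 (66.7%) a weaker summit found in fewer replicates. A member summit was found for 5 (18.5%, 6.3 to 38.1%). The 3 of highest signal were hif-1, the hypoxia-inducible transcription factor (21.6), egl-9, the prolyl hydroxylase that marks HIF-1 for destruction (21.3), and hlh-30, the TFEB homologue that regulates autophagy genes (18.2). Replicate signals at hif-1 were 8.34, 5.94 and 8.08, and the replicate 1 peak ranked 527. The member 144 bp upstream of egl-9 had a GA repeat and a GATA site, with replicate signals of 3.55, 6.06 and 9.17, and a second member lay within the gene. At hlh-30, also counted among 25 basic helix-loop-helix genes, the summit lay 96 bp upstream with 3.17, 11.0 and 4.47.

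Of 12 genes of NuRD and the related MEC complex, 4 (33.3%) had a first-1500 summit and 6 (50%) a weaker summit found in fewer replicates. A member summit was found for 2 (16.7%, 2.09 to 48.4%): mep-1, a zinc-finger subunit of MEC (pooled signal 11.99, replicates 3.23, 6.65 and 7.19), and egl-27 itself. In the chromatin and cell cycle list of 34 genes, 10 (29.4%) had a first-1500 summit and 18 (52.9%) a weaker summit found in fewer replicates. Member summits were found for 4 (11.8%, 3.30 to 27.4%). These were led by met-1, a histone H3 lysine methyltransferase gene (14.97, replicates 5.73, 16.6 and 3.32), and by swsn-1 and swsn-4, subunits of the SWI/SNF remodeller (14.8 and 12.3). At swsn-1 the replicate signals were 5.37, 7.17 and 6.46.

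At egl-27 (II:6835008 to 6847908) there were 3 members, 10 peaks of the first 1500 and 8 weaker peaks found in fewer replicates, over the gene and its promoter windows. The members had pooled signals from 8.88 to 20.2, and the promoter member had replicate signals of 3.87, 26.6 and 3.59, with ranks of 4656, 77 and 24486 in replicates 1, 2 and 3. By rank in its own list it was highest in replicate 2. The strain carries an egl-27 transgene beside its own copy, and reads of transgene and native gene cannot be told apart in these lists. Other genes with 3 member summits in the promoter or body were H18N23.2, lin-42, gln-3, a glutamine synthetase gene, mnk-1, a kinase gene, and lin-52, which encodes a subunit of the DRM complex of the retinoblastoma pathway. The gene lin-52 is 668 bp long, and its 3 member summits, which lay close together with ZK632.9 beside them, had pooled signals of 9.06 to 10.1. Genes with 2 included tent-5 and ulp-4, a SUMO protease gene. In all, 121 members (12.4%) had another member within 2000 bp, and no run of members held more than 3.

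Each of the epidermal, muscle and signalling lists had 1 to 3 genes with a member. Of 23 seam and epidermal regulators lin-26, a zinc-finger gene needed for epidermal fate, had a member (pooled signal 16.95, replicates 3.51, 11.3 and 4.15). Of 28 muscle structure genes 3 did: unc-15, the paramyosin gene, with a summit 1 bp upstream of its 5′ end and a GA repeat (13.1), pat-4, an integrin-linked kinase gene (12.2), and mup-2, a troponin T gene (11.2). Cuticle collagens had 3 of 169 (1.78%): col-176 (22.3), bli-6 (17.3) and col-72 (14.5). Of 21 genes of BMP and TGF-beta signalling, unc-40, the netrin receptor gene (19.5), and daf-3, a Smad gene (17.7), had a member. Of 24 genes of Notch and EGF/Ras signalling mpk-1, the ERK kinase gene, had a promoter member (16.9, replicates 2.14, 5.89 and 6.49).

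The neuronal fate, synaptic, nuclear hormone receptor and ceh homeobox lists had shares from 3.85% to 4.76%, beside the 2.69% of all genes. Their exact intervals all included 2.69%, running from 0.101 to 20.4%, 0.0973 to 19.6%, 2.06 to 7.20% and 0.993 to 13.3% in that order. Basic helix-loop-helix genes had 1 of 25 (4%, 0.101 to 20.4%). The remaining neuronal and transcription factor lists had lower shares. Neuropeptide genes, Hox genes and cofactors, and GATA factor genes had none, and chemoreceptors had 0.382%. Among 25 neuronal fate genes vab-3, the Pax6 homologue, had a member (17.9), and among 26 synaptic genes unc-104, a kinesin gene, had one (19.5, replicates 3.46, 12.3 and 3.55). Nuclear hormone receptors had 11 of 269 (4.09%, 2.06 to 7.20%). The strongest were nhr-31 (22.3, replicates 6.67, 9.63 and 6.25), nhr-142 (22.1) and nhr-64 (20.3), and 10 of the 11 had no first-1500 summit. Of 63 ceh homeobox genes, ceh-39 (17.6), ceh-33 (10.4) and ceh-18 (8.01) had one.

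Some lists had none. No member summit lay in a promoter of 30 Wnt signalling and asymmetric division genes, 11 Hox genes and cofactors or 11 GATA factor genes. The same held for 140 neuropeptide genes, 72 core histone genes and 31 major sperm protein genes. In that order, the upper limits of the exact intervals were 11.6%, 28.5%, 28.5%, 2.60%, 4.99% and 11.2%. Only the neuropeptide limit lay below the 2.69% of all genes. The other lists were too small to tell their lack of members from that share. First-1500 summits were found for 6.67% of the Wnt, 18.2% of the Hox and 18.2% of the GATA genes, against 4.65% of all genes. Weaker summits in fewer replicates were found for 46.7%, 54.5% and 36.4%, against 34.8%. For neuropeptide, core histone and sperm protein genes the first-1500 shares were 2.14%, 6.94% and 0%. Their shares in fewer replicates were 25%, 18.1% and 6.45%. None of these differences was tested. Chemoreceptors, expressed in few sensory neurons, had 5 of 1309 (0.382%, 0.124 to 0.889%), led by sre-23 (19.5), srz-97 (19.3) and srh-17 (18.4). The first 1500 peaks gave 4 of the same 1309 genes. F-box genes had 6 of 322 (1.86%), with fbxa-63 (18.9), fbxa-66 (14.4) and fbxa-188 (13.4) strongest. C-type lectins had 3 of 240 (1.25%). These were clec-57, whose peak is the same as that of srz-97, clec-80 (14.9), and clec-126, the window shown above (8.24, replicates 7.17, 18.2 and 18.2). The clec-126 summit ranked 21157 in the pooled list and lay 203 bp from a first-1500 summit. Its replicate values may therefore include that stronger peak.

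Of 81 cytosolic ribosomal protein genes 4 (4.94%, 1.36 to 12.2%) had a member summit, while 31 (38.3%) had a first-1500 summit and 40 (49.4%) a summit of the weaker peaks in fewer replicates; these shares were not tested against each other. The strongest members were rpl-41.2 (21.9), which also had a first-1500 summit, rps-0 (21.8, replicates 4.05, 11.3 and 5.46) and rps-26 (19.7). Translation factors had 2 of 40, the initiation factor genes eif-2alpha (15.4) and eif-3.E (12.5), while 11 had a first-1500 summit.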

How the data were processed

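Members, gene lists and motifs were chosen with earlier results of these data known. The authors deposited a relaxed peak list per replicate and for the pooled replicates, plus an IDR-thresholded list; per the deposited library notes all ce11 lists used a shared control alignment. Peak height is the deposited signal value, of unstated scale, and its significance the deposited −log10 q-value. Aligner, caller and IDR threshold are not given in the sources used here, and neither is read depth, so the precision of a single height is unknown. The ce10 lists were not used.

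Mitochondrial peaks were removed and summits were placed on Ensembl release 115 annotation and the RefSeq WBcel235 genome, the same assembly as ce11. Summits took the first class that applied: promoter, coding exon, untranslated region, intron, non-coding gene or pseudogene, intergenic. Motifs were searched within 50 bp of the summit. Fisher's exact test, the exact McNemar test and the Cochran-Mantel-Haenszel chi-square test over 8 rank bins were adjusted by Benjamini-Hochberg within each family and tested on simulated data (scipy 1.17.1, Python 3.11.15). Intervals are exact (Clopper-Pearson) 95% binomial intervals for counting error only. Signals, ranks and presence in replicates chose the members and were not tested.

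Named genes were the 5 peaks on each side of rank 1500, the 12 members with the best worst-of-3 rank, the 8 genes with most member summits, every listed GATA, NuRD, Wnt, Hox, seam and heterochronic gene with a member in its promoter, and the 3 of highest signal in each other list. Peaks are named for the nearest 5′ end up to 2000 bp away or, failing that, for the gene they lie in; in the gene lists a peak is named for each gene whose promoter holds it, which need not be the nearest. The weaker peaks that missed membership, the member at rop-1 and the members away from stronger peaks were named after their values were seen. Replicates are labelled as biological, but nothing says whether they were separate cultures.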

Additional observations from a re-analysis of the deposited data

How the results depend on the processing

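Of 155 values recomputed with another choice of processing, 123 kept their direction and their side of the threshold, or their size. The number of members changed most: 416 with replicate lists of equal length, 27 with replicate peaks of −log10 q of 2 or more, 319 with replicate summits within 100 bp, 594 when only ranks beyond 3000 counted, and 2361 to 4926 when a replicate was left out. With −log10 q of 2 or more, so few members were left that no position or motif difference passed: the odds ratio against fewer replicates was 1.78 for promoters, 0.238 for coding exons, 2.22 for the GA repeat and 0 for CTGCGTCTC. In that setting the GA repeat had an odds ratio of 0.405 against the first 1500 and a ratio of 2.5 to its flank, CTGCGTCTC had an odds ratio of 0 against the first 1500, and the GATA ratio to the flank was 0.75. CTGCGTCTC against its flank missed the threshold beyond rank 3000, with a ratio of 3.5, and no ratio could be given where its flank windows held none. With summits within 100 bp the promoter odds ratio against fewer replicates was 1.33, and the GATA values turned to 0.795 against fewer replicates and 0.902 against the flank. The GATA ratio to the flank was 0.984 with a rank threshold equal to the length of the IDR list. Within rank bins CTGCGTCTC fell to 1.41 and the X chromosome turned to 0.973. The promoter difference from the first 1500 passed the threshold with a promoter of 2000 to 500 bp (0.791) and of 500 to 0 bp (0.745). The cause of these changes was not tested. When a replicate was left out, the promoter odds ratio against the first 1500 ran from 0.633 to 0.720 and passed the threshold each time, the X odds ratio against fewer replicates ran from 1.08 to 1.205, the GATA odds ratio against fewer replicates from 0.979 to 1.13, and the GATA ratio to the flank from 1.002 to 1.16. Unknown read depth limits all peak heights.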
